A study of Mus musculus with 32 samples.

Results

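Mitotic G2/M genes encode the proteins that take a cell from the end of DNA replication through chromosome segregation and division. A list of 38 such genes was followed in mouse liver after lipopolysaccharide (LPS). A gene was taken as a member where its name on the array equalled a listed name. All 38 were on the array among 27827 gene names, with 67 probes between them. Of the 38, 34 were tested among 19199 genes, because at least 1 of their probes stood well above background on at least 4 of the 32 arrays. The remaining 4, Aurkb, Ttk, Espl1 and Kif2c, did not pass and have no level here. The 34 are the members bright enough to measure, so no statement below covers the whole list.

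Each of the 32 arrays held RNA of 1 mouse. WT mice carried E2F1+/+ on the strain labelled B6x126 F2. KO mice carried E2F1-/- on a strain whose label joins B6, a second strain and the knockout itself. The WT array titles name the same second strain as the KO label, so the labels do not settle whether the backgrounds differ. The mice were given saline (6 WT, 6 KO, both labelled 20 h), LPS for 6 h (4 WT, 4 KO) or LPS for 20 h (6 WT, 6 KO). LPS is a cell wall component of Gram-negative bacteria, here given systemically, and E2F1 is a transcription factor of the cell cycle. Genotype and any difference in strain background cannot be told apart in these groups, and the 6 h groups have no saline group of their own time. Levels are log2 signals relative to the array's own 75th percentile, so a negative level lies below that percentile. Differences are log2 values with the standard error (SE) of limma's fit, and a gene was called where its Benjamini-Hochberg adjusted p over all 19199 genes was under 0.05.

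As background, entry into mitosis is driven by cyclin B bound to CDK1, which CDC25 phosphatases switch on. Aurora and Polo kinases then mature the spindle poles, the chromosomal passenger complex corrects the attachment of chromosomes, and the spindle checkpoint holds back the anaphase-promoting complex until every kinetochore is attached. Most of these genes are silent in resting cells and are switched on together late in the cell cycle, through promoter elements that bind the MuvB core with B-Myb and FOXM1, and are shut by the DREAM repressor in quiescence. Adult hepatocytes rarely divide, so in this organ a low level of these transcripts can also come from resident immune or blood precursor cells. In RNA from whole tissue, fewer cells of a type and less RNA per cell cannot be told apart.

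The 75th percentile of the signal ranged from 282 to 1138 between arrays, with 20203 to 28891 spots of an array above the scanner software's background limit. The number of arrays limits the precision. A pair of arrays stood apart, replicate 1 of KO saline and replicate 1 of KO LPS 6 h. On a scale where the WT saline mean is 0 and the WT LPS 6 h mean is 1 over the genes called in WT at 6 h, the former scored 0.885 against -0.01 to 0.06 for the other KO saline arrays. The latter scored 0.126 against 0.897 to 0.976 for the other KO LPS 6 h arrays. Each of the pair scored closer to the arrays of the other's label, and both lay on the same slide. The members called in the KO comparisons are named for both fits, with this pair and without it. The scale was built from the WT response to LPS, with called members among its genes. Leaving out the pair therefore moves the KO 6 h comparison toward that of WT by selection. The fit without the pair is thus no separate test of the KO response. On a like scale from WT saline to WT LPS 20 h, KO LPS 20 h replicate 4 scored 0.357. The others of its group scored 0.961 to 1.06. That array is kept in both fits, so the KO results at 20 h include it in each. The protocol text names lung, but all 10 hepatocyte markers tested were well above background on at least 1 array of every group. Of 5 lung epithelial markers Sftpb and Sftpc were not well above background on any array. The other 3 were tested, with a summed linear level of at most 2.44 per array. For the hepatocyte markers that sum was at least 1928. E2f1 itself was not lower in the arrays labelled KO: its level was -3.36 ± 1.01 (SD, n = 6) in WT and -3.23 ± 0.81 (n = 6) in KO on saline, and -5.57 ± 0.88 (n = 5, without WT LPS 20 h replicate 1) and -2.06 ± 1.57 (n = 6) at 20 h. At 6 h it was -3.83 ± 0.43 (n = 4) in WT and -2.30 ± 0.56 (n = 4) in KO. In limma's fit E2f1 was called higher in KO at 20 h (3.51 ± 0.58, adjusted p = 0.0036). The mean of a second probe was also higher in KO, at -3.57 against -4.14 on saline. For that probe the KO and WT means were -3.01 and -5.01 at 6 h, and -3.30 and -5.40 at 20 h. The probe used lies at 154386004 to 154386063 on chromosome 2 (mm9) and the sources used here do not name the deleted part of the gene, so the probe cannot check the genotype labels.

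The promoters show what these genes share beyond the list. RefSeq promoters (GRCm38.p6, from 250 bases before to 50 after the start) were at hand for 32 of the 38 members. A CHR, the element bound by the MuvB core (TTTGAA or TTTAAA, either strand), stood in 26 of 32, or 81.3%, against 27.8% of the 27025 promoters of all genes. A CCAAT box, on either strand, was found in 27 members' promoters (84.4%) against 37.9%. Both together occurred in 24 members (75%) against 10.9%. An E2F site (TTTCCCGC, TTTGGCGC or TTCCCGCC, either strand; the first and the last overlap in part) was found in 1 member, Cenpl (3.13%), against 3.31%. A match of letters is a description and not a measured binding site. The 150 bases before the start are shown for the 6 members that were called in the most comparisons and have a promoter in the table (ties by the larger change), with the motif matches in capitals.
Ccnf, chromosome 17, 24251410 to 24251559, minus strand: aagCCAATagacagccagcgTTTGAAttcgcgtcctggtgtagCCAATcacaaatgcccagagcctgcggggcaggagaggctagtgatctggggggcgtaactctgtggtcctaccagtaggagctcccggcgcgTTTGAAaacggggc
Bub1b, chromosome 2, 118598061 to 118598210, plus strand: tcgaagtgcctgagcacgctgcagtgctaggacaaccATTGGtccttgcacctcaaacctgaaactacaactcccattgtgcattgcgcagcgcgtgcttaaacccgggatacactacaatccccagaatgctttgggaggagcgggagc
Ccnb2, chromosome 9, 70421555 to 70421704, minus strand: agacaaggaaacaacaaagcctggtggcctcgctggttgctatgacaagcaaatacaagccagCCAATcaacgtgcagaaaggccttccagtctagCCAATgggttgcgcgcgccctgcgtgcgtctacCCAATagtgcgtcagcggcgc
Aurka, chromosome 2, 172370571 to 172370720, minus strand: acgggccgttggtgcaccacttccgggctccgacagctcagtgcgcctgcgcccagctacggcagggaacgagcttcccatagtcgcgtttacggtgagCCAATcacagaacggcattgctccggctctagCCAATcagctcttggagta
Cenpa, chromosome 5, 30666736 to 30666885, plus strand: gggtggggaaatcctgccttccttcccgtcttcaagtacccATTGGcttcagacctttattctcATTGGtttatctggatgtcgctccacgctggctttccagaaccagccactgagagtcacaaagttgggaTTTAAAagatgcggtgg
Cenpe, chromosome 3, 135212413 to 135212562, plus strand: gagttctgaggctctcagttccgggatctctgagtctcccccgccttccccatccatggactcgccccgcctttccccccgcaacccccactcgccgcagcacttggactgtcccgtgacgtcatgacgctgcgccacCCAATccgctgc
Ccnb2 shows 3 CCAAT boxes in a row, at 87, 54 and 21 bases before the start, and Ccnf pairs 2 CCAAT boxes with 2 CHR elements, one of them 14 bases before the start. The CHR of Bub1b, Ccnb2, Aurka and Cenpe lies in the window outside the bases shown. Members called in opposite directions below can hold the same motifs: Cenpe, which was higher at 6 h, holds a CHR and a CCAAT box, as do Ccnf, Aurka and Cenpa, which were lower, whereas Pttg1, also higher, holds neither.

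In WT liver 6 h after LPS 12 of the 34 members were called. Lower were 9, among them the SCF subunit Ccnf, the kinase Aurka, the anaphase activator Cdc20 and the Aurora B partners Incenp and Cdca8. Higher were 3, the spindle factor Tpx2, the securin Pttg1 and the kinetochore motor Cenpe. Among all genes 16% were lower and 12.5% higher. The share of members called higher thus lay below that of all genes, and the share called lower above it. Whether these shares differ was not tested. The median difference over the 34 was -0.42, against 0.01 over all genes. Of the 22 uncalled members the one with the largest difference was Cenpf at -1.38 ± 0.55 (adjusted p = 0.0601), for which no WT LPS 6 h array stood well above background.

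After 20 h of LPS in WT, 5 of the 34 members were called and all 5 were lower: Cenpa, Cdc25b, Ube2c, Ccnb2 and Kif20a. The background was 20.1% lower and 16.5% higher, so the share of members called lower was close to that of all genes. The median difference was -0.53 against -0.02 over all genes, and 24 of the 34 differences were below 0. Cdc20 had the largest difference among the uncalled, -1.14 ± 0.48 (adjusted p = 0.0636). Without the 2 KO arrays that stand apart, which enter the shared estimate of spread, 8 were called, all lower, with Cdc20, Cdca8 and Cenpf added, against 22.4% lower and 19.0% higher among all genes, so this share too was close to that of all genes. The 6 h and 20 h comparisons share the WT saline arrays.

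Between 6 h and 20 h of LPS in WT, 9 members were called. Ccnf, Incenp, Aurka, Bub1b, Cdca8 and Bub3 were higher at 20 h, and Cenpe, Tpx2 and Ccnb2 lower, against 17.1% higher and 17.2% lower among all genes. The median difference was -0.09 against -0.08 over all genes. Pttg1 had the largest difference among the uncalled, -2.17 ± 0.87 (adjusted p = 0.0543). Aurka, Incenp, Bub1b, Cdca8 and Ccnf were called lower at 6 h and higher from 6 h to 20 h; these comparisons share the 4 WT LPS 6 h arrays, so a low reading there enters both calls. Cenpa, Cdc25b and Kif20a were called lower at both times.

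**Figure D1:**
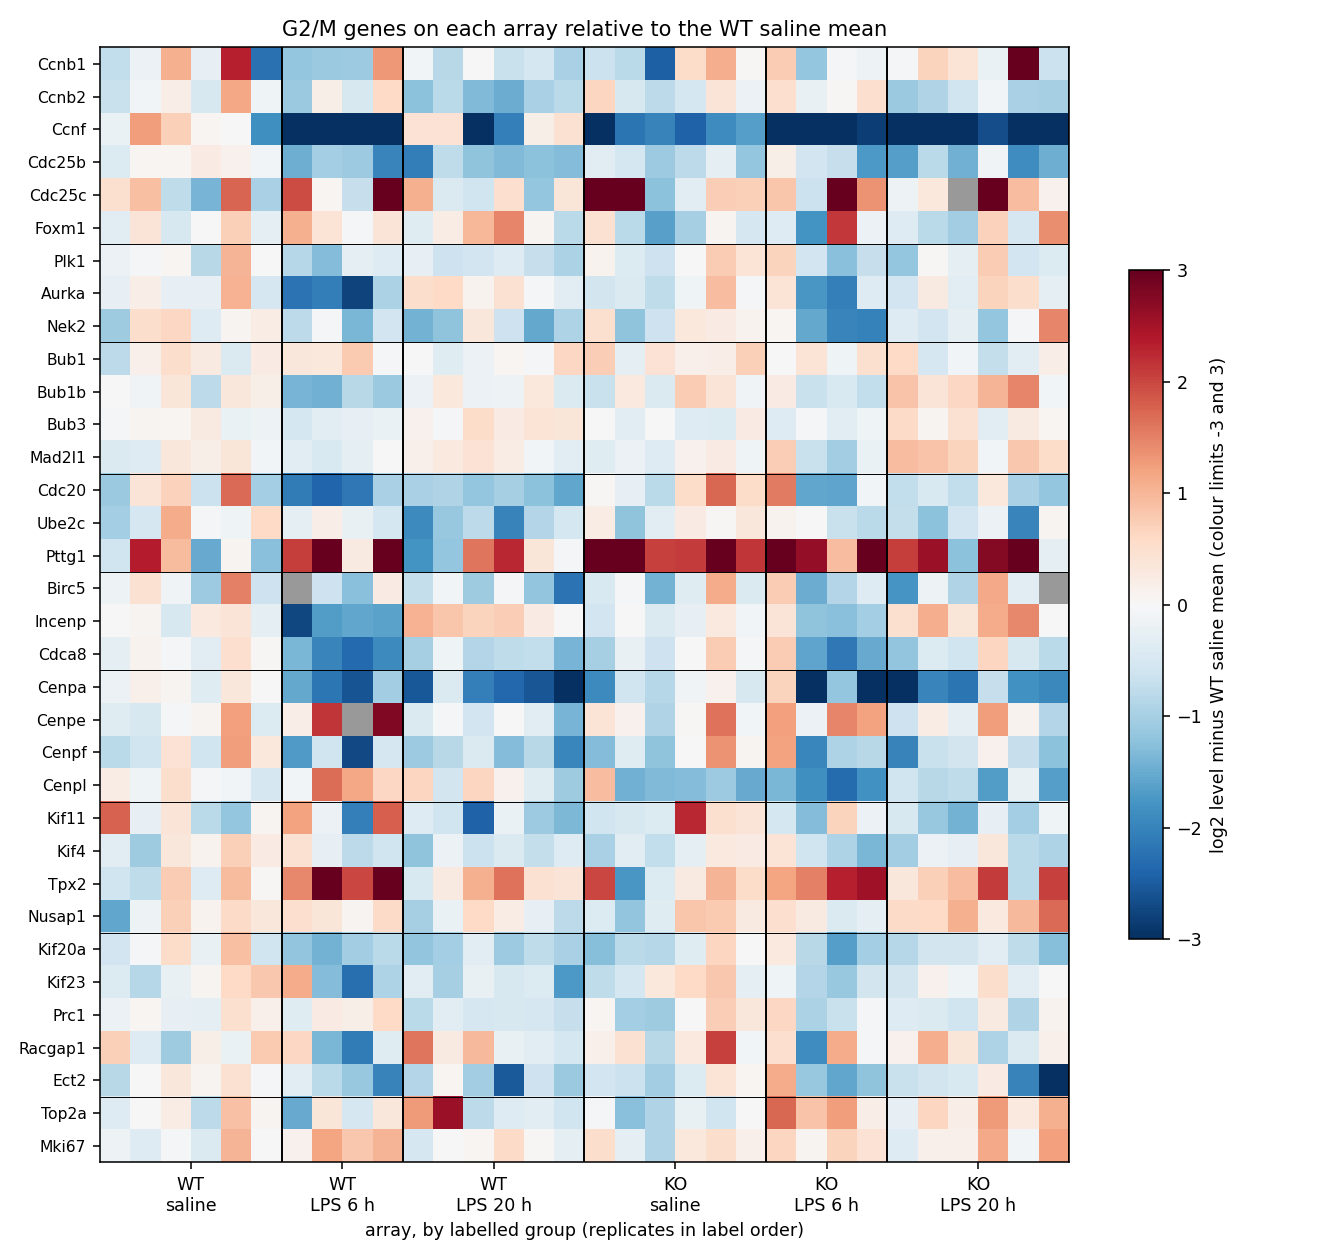
Each cell is the log2 level of a G2/M gene (rows, grouped by role) on an array (columns, grouped by label) minus the WT saline mean of that gene, with colours limited to -3 and 3 and missing values in grey. Incenp, Cdca8 and Cenpa are blue on all 4 WT LPS 6 h arrays, and on the array labelled KO LPS 6 h replicate 1, the first of its block, they are not.

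In KO liver no member was called 6 h after LPS with all arrays, against 1.58% of all genes called higher and 1.03% lower. In limma's fit 6 members had an unadjusted p under 0.05. That limit is looser, and no share of all genes is given for it. Without the 2 arrays that stand apart, which stood out by their score on the WT 6 h response, 10 members were called. Lower were Cenpa, Ccnf, Cdca8, Nek2, Cdc20, Aurka, Incenp, Kif20a and Bub1b, 9 in all, and Tpx2 was higher, against 16.3% lower and 12.9% higher among all genes. Without KO saline replicate 1 alone 2 members were called, against 18.5% of all genes, and without KO LPS 6 h replicate 1 alone 6, against 20.2%. The median difference was -0.28 with all arrays and -0.65 without both, against -0.02 and -0.03 over all genes. Tpx2 had the largest difference with all arrays, 1.61 ± 0.59 (adjusted p = 0.104).

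At 20 h in KO liver, Incenp and Mad2l1 were called higher and no member lower, against 11.7% higher and 14.6% lower among all genes. Cenpa, at -1.30 ± 0.51 (adjusted p = 0.0585), had the largest difference among the uncalled. Without the 2 arrays that stand apart 4 were called, Incenp and Mad2l1 higher and Ccnf and Cenpa lower, against 16% and 18.9%. The count moved between 1 without KO LPS 20 h replicate 5 and 6 without KO LPS 20 h replicate 4. It was 4 without KO saline replicate 1, KO saline replicate 4, KO LPS 6 h replicate 1 or WT LPS 20 h replicate 2, each left out alone. The counts with 1 array left out are given without the share of all genes under the same setting. They show only how the members' calls moved.

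From 6 h to 20 h in KO liver, Incenp, Bub1b and Mad2l1 were called higher and Ccnb2 lower, against 7.25% higher and 8.34% lower among all genes. Without both arrays 7 were called and all were higher, namely Incenp, Nek2, Aurka, Bub1b, Cdca8, Mad2l1 and Cenpl, against 11.5% higher and 10.9% lower. The median difference was 0.01 with all arrays and 0.38 without both, a value that leaving out KO LPS 6 h replicate 1 alone also gave. The count was 2 without KO LPS 6 h replicate 3, given without the share of all genes under that setting. The uncalled member with the largest difference was Nek2, 1.21 ± 0.46 (adjusted p = 0.0732).

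**Figure D2:**
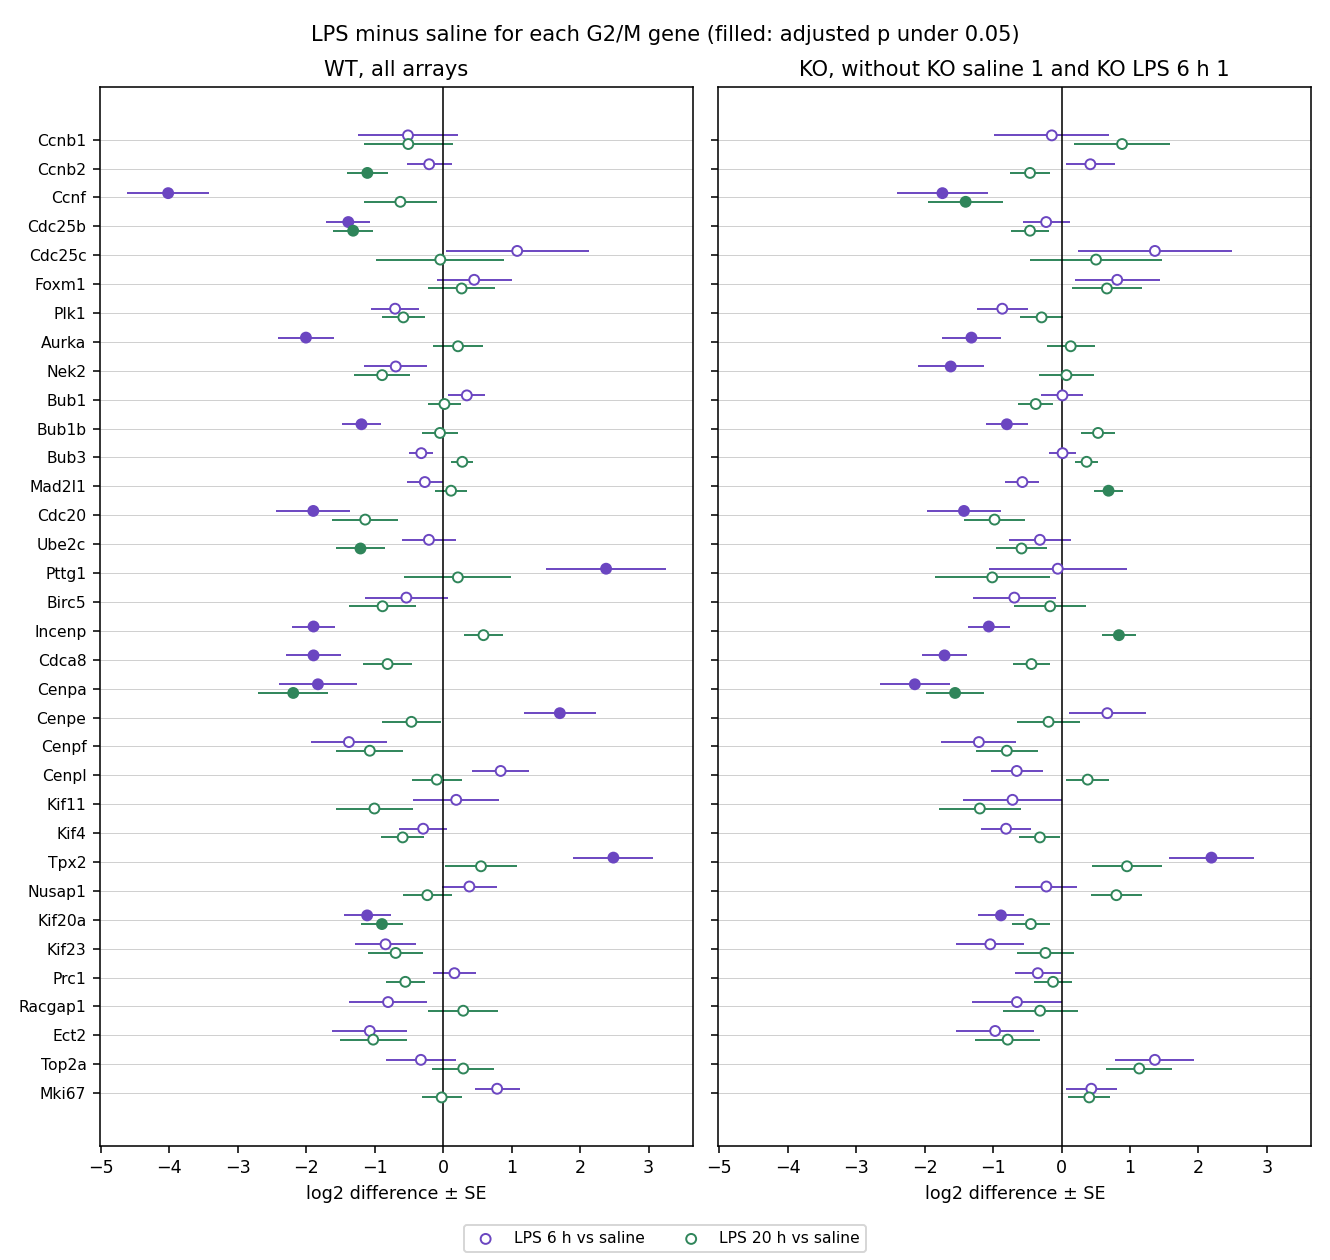
Points are log2 differences between LPS and saline with their SE for the 34 tested G2/M genes, at 6 h (purple) and 20 h (green), in WT with all arrays (left) and in KO without the 2 arrays that stand apart (right), filled where the adjusted p was under 0.05. At 6 h the called genes lie mainly left of 0, with Tpx2 to the right in both panels and Pttg1 and Cenpe to the right in WT. The 2 arrays left out stood out by their score on the WT 6 h response, so the likeness of the panels is no separate test.

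Among the genes of mitotic entry, 2 of 6 were called at 6 h in WT. Ccnf, the F-box cyclin that names SCF targets for destruction in G2, was at -1.81, 0.07 and 1.30 (lowest, median and highest level of 6 WT saline arrays). It was at -4.11, -3.56, -4.23 and -4.03 in WT LPS 6 h, where 2 of 4 arrays stood well above background. Every 6 h array lay below every saline array, a difference of -4.02 ± 0.60, or 16.2-fold (adjusted p = 2.06e-05). At 20 h of LPS, 4 WT arrays were back between 0.22 and 0.48 and the other 2 stood at -3.18 and -2.01, so this group was split. The step from 6 h to 20 h was 3.39 ± 0.60 (adjusted p = 7.04e-05), with no overlap.

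Cdc25b, a phosphatase that starts CDK1 activation, was called lower at both times in WT. Its levels were -2.53, -2.05 and -1.87 (lowest, median, highest) on saline and -3.59, -3.14, -3.20 and -4.09 at 6 h. At 20 h they were -4.20, -3.38 and -2.88. Neither LPS group overlapped the saline group, and the differences were -1.39 ± 0.32 (adjusted p = 0.00161) and -1.32 ± 0.29 (adjusted p = 0.00068). The second probe of the gene gave -0.81 and -1.14. In the deposited table the differences were smaller, -0.42 (adjusted p = 0.351) and -0.63 (adjusted p = 0.0827), and no longer called.

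Ccnb2, a B-type cyclin and partner of CDK1, was called lower at 20 h. In WT its levels were -1.80, -1.23 and 0.02 on saline, and -2.24, -0.95, -1.62 and -0.54 at 6 h. At 20 h they were -2.62, -2.24 and -1.95, below every saline array. The difference from saline was -1.11 ± 0.30 (adjusted p = 0.00409) and that from 6 h -0.90 ± 0.33 (adjusted p = 0.0344), the latter with overlap. The second of these calls was lost without WT LPS 6 h replicate 2 (-0.77, adjusted p = 0.111) or replicate 4 (-0.64, adjusted p = 0.166), and without WT LPS 20 h replicate 1 (-0.88, adjusted p = 0.0555), 3 (-0.86, adjusted p = 0.0599) or 4 (-0.83, adjusted p = 0.0647). In KO the step from 6 h to 20 h was -0.98 ± 0.33 (adjusted p = 0.0415), and -0.88 (adjusted p = 0.0708) without both arrays that stand apart. That call also ended without KO LPS 6 h replicate 1, 3 or 4, or KO LPS 20 h replicate 1, 2, 3, 5 or 6, each left out alone, with adjusted p-values from 0.0555 to 0.13.

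Foxm1, the transcription factor of the G2/M programme, was not called in any comparison: its mean level was -3.12 ± 0.46 (SD, n = 6) on WT saline, -2.67 ± 0.45 (n = 4) at 6 h and -2.85 ± 0.84 (n = 6) at 20 h. Ccnb1, the main mitotic cyclin, stood well above background on 6 of 32 arrays and Cdc25c on 5. For both the array gives little beyond that they were dim. Outside the list, Cdc2a, the array's name for Cdk1, differed from saline by 0.46 ± 0.43 at 6 h in WT and -0.52 ± 0.39 at 20 h, and Ccna2, cyclin A2 of S and G2 phase, by -0.28 ± 0.39 and -0.25 ± 0.35. None of these 4 differences was called, with adjusted p-values between 0.309 and 0.634.

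Of the mitotic kinases, Aurka was the one called in WT. Aurora A, its product, matures spindle poles. Its levels were -1.61, -1.34 and -0.07 on WT saline, and -3.33, -3.17, -3.88 and -2.06 at 6 h. The 20 h arrays read -1.44, -0.83 and -0.50. All 4 arrays at 6 h lay below all WT saline and all WT 20 h arrays. The 6 h difference was -2.01 ± 0.41 (adjusted p = 0.000518), or 4.02-fold, and the step to 20 h 2.22 ± 0.41 (adjusted p = 0.000122). In KO the 6 h levels were -0.70 on the array that stands apart and -2.86, -3.16 and -1.49 on the others, against -1.86, -1.38 and -0.17 on saline. The 6 h difference was -0.79 ± 0.41 (adjusted p = 0.272) with all arrays and -1.32 ± 0.42 (adjusted p = 0.0192) without both.

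Nek2, a centrosome kinase, was called in KO once the 2 arrays were left out. Its KO levels were -3.13, -1.75 and -1.44 on saline, -1.87 on the 6 h array that stands apart and -3.47, -3.91 and -3.96 on the other 6 h arrays. Against saline, the 6 h difference without both arrays was -1.62 ± 0.48 (adjusted p = 0.0108), and with all arrays -1.26 ± 0.46 (adjusted p = 0.107). Plk1, the Polo kinase, was well above background on all arrays and not called. Its level in WT was -2.23 ± 0.60 (SD, n = 6) on saline, -2.93 ± 0.46 (n = 4) at 6 h and -2.81 ± 0.24 (n = 6) at 20 h.

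In the spindle checkpoint, the members differed from each other. Bub1b, which encodes the checkpoint kinase-like protein BubR1, was dim. Its levels were -5.61, -4.73 and -4.46 on WT saline, where 2 of 6 arrays stood well above background. At 6 h they were -6.21, -6.27, -5.64 and -5.93, where none did. These groups did not overlap (-1.19 ± 0.29, adjusted p = 0.00249), and because the 6 h group lies in the background no fold is given. The step to 20 h was 1.15 ± 0.29 in WT (adjusted p = 0.00284) and 1.11 ± 0.29 in KO (adjusted p = 0.0092), or 1.33 ± 0.29 in KO without both arrays that stand apart (adjusted p = 0.00147). In KO, 3 of 6 arrays at 20 h and none at 6 h stood well above background, a level at least 1.23-fold higher.

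Mad2l1, the checkpoint protein that sequesters CDC20, was called higher in KO at 20 h. Its KO levels were -2.82, -2.59 and -2.19 on saline, and -1.69, -3.11, -3.48 and -2.63 at 6 h. After 20 h they were -2.52, -1.69 and -1.52. Of the 6 KO arrays at 20 h, 5 lay above every KO saline array. The 20 h difference was 0.74 ± 0.23 (adjusted p = 0.0195), and 0.75 by its second probe. Without both arrays it was 0.69 ± 0.21 (adjusted p = 0.0103). In WT it was 0.11 ± 0.23 (adjusted p = 0.737), and the interaction at 20 h was 0.62 ± 0.33 (adjusted p = 0.802). The KO step from 6 h to 20 h, 0.91 ± 0.26 (adjusted p = 0.0166), was lost without KO LPS 6 h replicate 2 (0.79, adjusted p = 0.068) or 3 (0.66, adjusted p = 0.119), and was 1.26 ± 0.24 without both arrays that stand apart (adjusted p = 0.000378).

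Bub3, which carries the checkpoint kinases to kinetochores, was called once. Its WT levels were 2.39, 2.60 and 2.87 on saline, and 2.08, 2.29, 2.35 and 2.39 at 6 h. The 20 h arrays read 2.57, 2.90 and 3.15, with no overlap with 6 h. That step was 0.60 ± 0.18 (adjusted p = 0.00935), and 0.46 (adjusted p = 0.0592) with the slide as a block. Its second probe gave 0.21 for the same step. Bub1, the other checkpoint kinase, had WT means of -1.01 ± 0.50 (SD, n = 6), -0.66 ± 0.34 (n = 4) and -0.99 ± 0.33 (n = 6) and was not called in any comparison.

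The 3 measured genes of anaphase onset went apart. Cdc20, the activator of the anaphase-promoting complex, was at -2.31, -1.32 and 0.51 on WT saline, and at -3.29, -3.58, -3.34 and -2.15 at 6 h, with overlap through 1 array. The difference was -1.90 ± 0.54 (adjusted p = 0.00824), and -1.53 (adjusted p = 0.0655) with the slide as a block. The KO array at 6 h that stands apart read 0.38, and the others -2.76, -2.77 and -1.26. Ube2c, the ubiquitin-conjugating enzyme of the same complex, was lower at 20 h in WT. Its levels there were -5.11, -4.11 and -3.62 against -4.12, -3.19 and -1.98 on saline, a difference of -1.21 ± 0.36 (adjusted p = 0.00839) with overlap.

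Pttg1, securin, the inhibitor of the protease that separates sister chromatids, scattered widely within groups. Its WT levels were 0.31, 1.55 and 4.18 on saline, and 3.88, 5.21, 2.09 and 5.61 at 6 h. The 20 h levels were 0.03, 1.99 and 4.08. The groups overlapped. Against saline, the 6 h difference was 2.38 ± 0.87 (adjusted p = 0.04), and the call was fragile. It was lost without WT saline replicate 1 (2.26, adjusted p = 0.0709), 4 (2.08, adjusted p = 0.0891), 5 (2.39, adjusted p = 0.0553) or 6 (2.13, adjusted p = 0.0817), and without WT LPS 6 h replicate 1 (2.48, adjusted p = 0.0631), 2 (2.04, adjusted p = 0.128) or 4 (1.91, adjusted p = 0.136). In KO the level on saline was already 3.87, 4.39 and 5.37.

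The 2 called partners of Aurora B in the chromosomal passenger complex fell at 6 h in WT. At 20 h in WT neither was called against saline with all arrays. Without the 2 arrays that stand apart Cdca8 was called lower there. Incenp, the scaffold, was at -0.57, -0.04 and 0.31 on WT saline and at -2.80, -1.76, -1.64 and -1.70 at 6 h. At 20 h it was at -0.07, 0.61 and 0.95. The 6 h group lay below both others without overlap, by 1.89 ± 0.31 on the log2 scale against saline (adjusted p = 5.47e-05), and the step to 20 h was 2.48 ± 0.31, or 5.59-fold (adjusted p = 8.13e-07). At 20 h against saline the WT difference was 0.59 ± 0.28 (adjusted p = 0.0983) and the KO difference 0.92 ± 0.28 (adjusted p = 0.0151), the latter lost without KO LPS 20 h replicate 5 (0.78, adjusted p = 0.0503) and 0.84 ± 0.25 without both arrays that stand apart (adjusted p = 0.0109). In KO at 6 h the array that stands apart read 0.29 and the others -1.29, -1.34 and -1.09, and the 6 h difference was -0.60 ± 0.31 with all arrays (adjusted p = 0.27) and -1.06 ± 0.31 without both (adjusted p = 0.00878). The KO step from 6 h to 20 h was 1.52 ± 0.31 with all arrays (adjusted p = 0.00143) and 1.90 ± 0.30 without both (adjusted p = 4.28e-05).

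Cdca8, borealin, which ties the complex to centromeres, was at -1.06, -0.75 and -0.25 on WT saline and at -2.11, -2.71, -3.08 and -2.64 at 6 h. At 20 h it stood between, at -2.12, -1.56 and -0.86. Against saline, the 6 h difference was -1.89 ± 0.40 (adjusted p = 0.000653) with no overlap, and in KO -0.92 ± 0.40 with all arrays (adjusted p = 0.173) and -1.71 ± 0.33 without both (adjusted p = 0.000229). At 20 h the WT difference was -0.81 ± 0.36 (adjusted p = 0.0742) with all arrays, and it was called without both. The WT step to 20 h, 1.08 ± 0.40 (adjusted p = 0.036), was lost without WT LPS 6 h replicate 2, 3 or 4, or without WT LPS 20 h replicate 2, 4 or 5, with adjusted p-values from 0.0502 to 0.11. It was also lost with the slide as a block (adjusted p = 0.0964) and in the deposited table (0.77, adjusted p = 0.0546). Birc5, survivin, had WT means of -0.69 ± 0.91 (SD, n = 6) on saline and -1.57 ± 0.81 (n = 6) at 20 h and was not called.

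**Figure D3:**
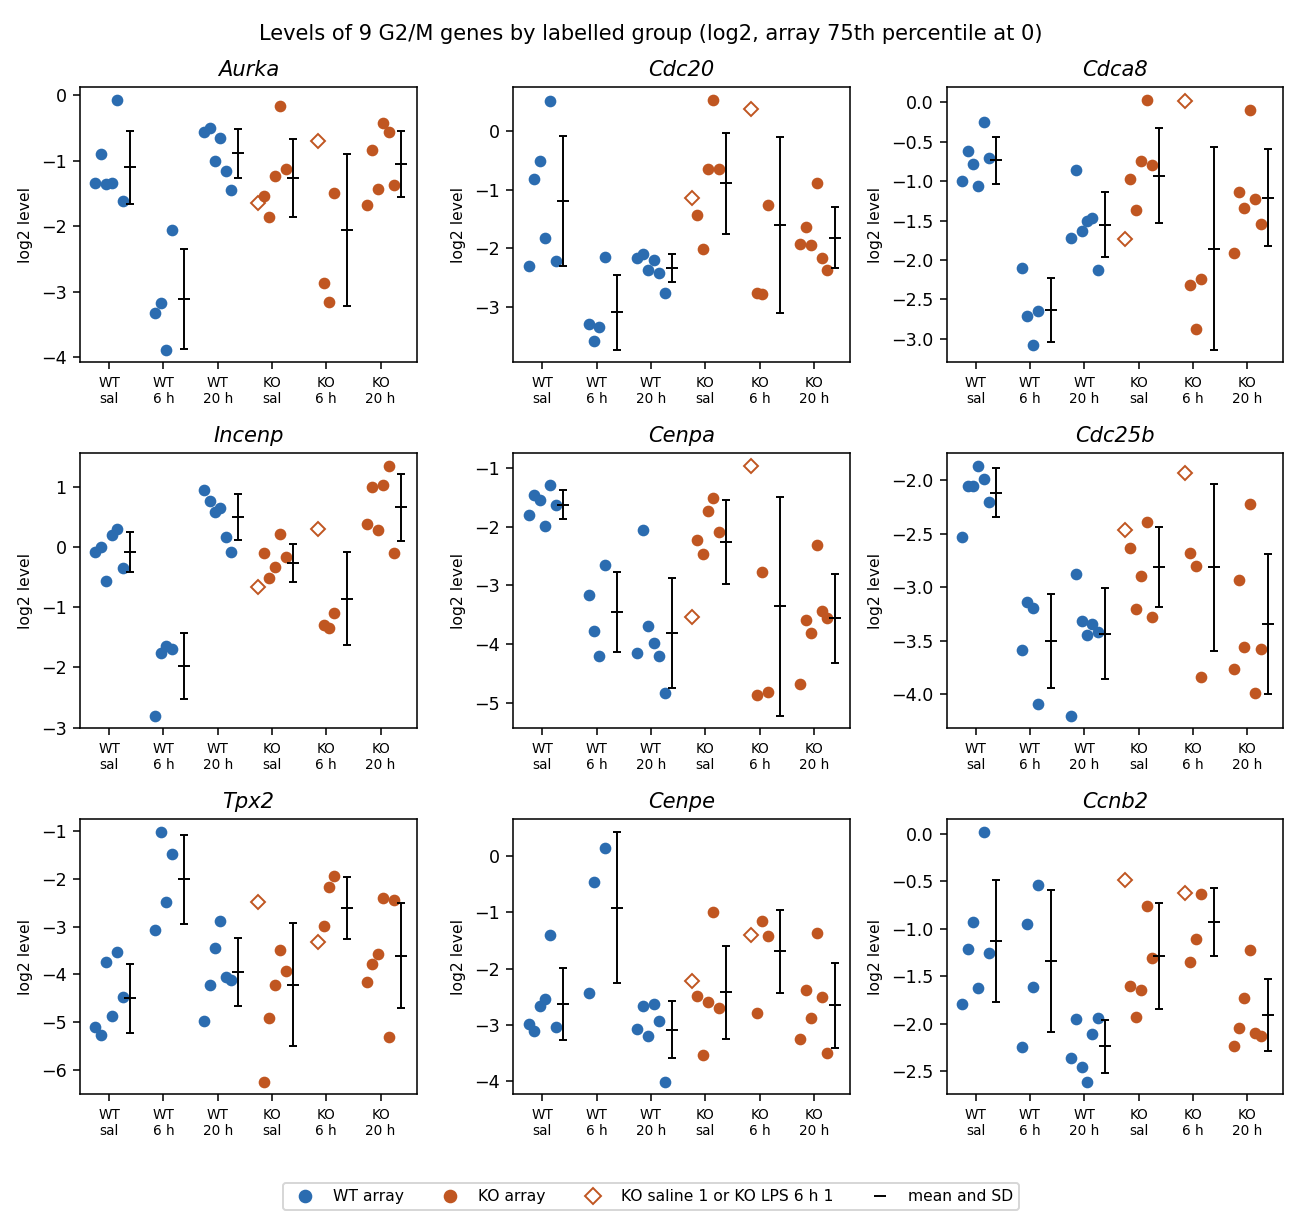
Points are the log2 levels of 9 G2/M genes on each array by labelled group, with the group mean and SD beside them and the 2 arrays that stand apart as open diamonds. Aurka, Cdca8 and Incenp are lowest at 6 h in WT, where Cenpa and Cdc25b are low at both times, Ccnb2 is lowest at 20 h, and Tpx2 and Cenpe are highest at 6 h.

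At the centromere, Cenpa, the histone H3 variant that marks it, stayed low at both times. Its WT levels were -1.99, -1.59 and -1.29 on saline, and -3.17, -3.78, -4.20 and -2.66 at 6 h. After 20 h they were -4.82, -4.06 and -2.05. Every LPS array of WT lay below every WT saline array. The differences were -1.83 ± 0.57 at 6 h (adjusted p = 0.0159), lost without WT LPS 6 h replicate 3 (-1.58, adjusted p = 0.0654), and -2.19 ± 0.51, or 4.57-fold, at 20 h (adjusted p = 0.00126). In KO, without both arrays, they were -2.14 ± 0.51 (adjusted p = 0.0018) and -1.56 ± 0.42 (adjusted p = 0.005), and with all arrays -1.09 ± 0.57 (adjusted p = 0.271) and -1.30 ± 0.51 (adjusted p = 0.0585). The array labelled KO LPS 6 h replicate 1 read -0.96 and that labelled KO saline replicate 1 read -3.53.

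Cenpe, the kinetochore motor that carries chromosomes to the spindle equator, went the other way at 6 h. Its WT levels were -3.11, -2.82 and -1.40 on saline and -2.43, -0.47 and 0.15 at 6 h, on 3 arrays because WT LPS 6 h replicate 3 had no usable spot. The 20 h arrays read -4.01, -3.0 and -2.64. Against saline, the 6 h difference was 1.70 ± 0.53 (adjusted p = 0.0155) with overlap and was lost without WT LPS 6 h replicate 2 (1.48, adjusted p = 0.0837) or 4 (1.17, adjusted p = 0.139). The step to 20 h was -2.17 ± 0.53 (adjusted p = 0.00205) with no overlap. Cenpf, a kinetochore protein, stood well above background on 4 of 6 WT saline arrays and on none of the 4 at 6 h.

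Among motors and microtubule binders, Tpx2 rose at 6 h. Its product activates Aurora A and nucleates spindle microtubules. The WT levels were -5.26, -4.67 and -3.54 on saline, and -3.06, -1.02, -2.49 and -1.48 at 6 h. The 20 h levels were -4.97, -4.09 and -2.87. The 6 h arrays lay above all WT saline arrays, by 2.49 ± 0.59 or 5.60-fold (adjusted p = 0.00185). The step down to 20 h was -1.93 ± 0.59 (adjusted p = 0.011), lost without WT LPS 6 h replicate 2 (-1.60, adjusted p = 0.057). In KO the 6 h difference was 1.61 ± 0.59 with all arrays (adjusted p = 0.104) and 2.19 ± 0.62 without both (adjusted p = 0.00794). Tpx2 and Aurka, whose products act together, were thus called in opposite directions at 6 h in WT.

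Of the other spindle genes, the motors Kif11 and Kif4 and the microtubule binder Nusap1 were not called in any comparison. Kif11 stood well above background on 5 of the 32 arrays. Nusap1 had a mean of -4.66 ± 0.60 (SD, n = 6) in WT and -3.56 ± 0.49 (n = 6) in KO at 20 h, and the genotype difference of 1.1 ± 0.36 was not called (adjusted p = 0.288).

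In cytokinesis, Kif20a, the central spindle motor that carries the passenger complex, was called lower at both times in WT. Its levels were -1.95, -1.50 and -0.47 on saline, and -2.55, -2.79, -2.40 and -2.16 at 6 h. After 20 h they were -2.55, -2.36 and -1.71. The 6 h group did not overlap saline (-1.11 ± 0.34, adjusted p = 0.0145), and the 20 h group did (-0.90 ± 0.31, adjusted p = 0.0219). With the slide as a block neither was called (adjusted p = 0.158 and 0.054). The 6 h call was lost without WT LPS 6 h replicate 2 (-1.01, adjusted p = 0.0543), and the 20 h call without WT saline replicate 3 (-0.79, adjusted p = 0.0572) or 5 (-0.72, adjusted p = 0.07). Prc1, Ect2, Kif23 and Racgap1, which bundle midzone microtubules and position the contractile ring, were not called.

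The 2 chromosome proteins were not called either. Mki67, the proliferation antigen Ki-67, was at -1.99, -1.65 and -0.55 on WT saline, at -1.43, -0.37, -0.75 and -0.54 at 6 h and at -2.08, -1.54 and -0.98 at 20 h. Against saline, the 6 h difference was 0.79 ± 0.33 (adjusted p = 0.072), and 1.11 by its second probe. Top2a, the topoisomerase that untangles sister chromatids, was dim, with 15 of 32 arrays well above background. In all, 17 of the 34 members were called in at least 1 of the 11 comparisons and 17 in none. The like share over all genes was not taken, so this count does not set the members apart. In WT at 20 h against saline alone, 7029 of the 19199 genes were called.

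Between genotypes, few members separated the arrays labelled KO from those labelled WT. On saline none of the 34 was called, against 0.333% of all genes. In limma's fit 4 members had an unadjusted p under 0.05, a looser limit for which no share of all genes is given. At 6 h and at 20 h after LPS 1 member each was called, Cenpl and Ccnf, against 1.26% and 0.323% of all genes. Without both arrays that stand apart the same members were called, against 0.354%, 1.34% and 0.526% of all genes on saline, at 6 h and at 20 h. The largest saline differences were those of Pttg1, 2.67 ± 0.78 (adjusted p = 0.201), and Ccnf, -2.30 ± 0.54 (adjusted p = 0.0528). Without both arrays they were 2.49 ± 0.84 (adjusted p = 0.398) and -2.03 ± 0.55 (adjusted p = 0.148).

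Cenpl, a subunit of the kinetochore's inner network, was at 0.02, 1.76, 1.26 and 0.71 in WT LPS 6 h and at -1.28, -1.73, -2.22 and -1.72 in KO LPS 6 h. The groups did not overlap, and the KO level was lower by 2.67 ± 0.45 on the log2 scale, or 6.39-fold (adjusted p = 0.00253). Without both arrays that stand apart the difference was -2.83 ± 0.40 (adjusted p = 0.000999). Its second probe gave -2.96. On saline the WT levels were -0.39, 0.03 and 0.63. The KO array that stands apart read 1.02 and the other 5 lay between -1.41 and -1.0, below every WT saline array. The saline difference was -0.96 ± 0.37 with all arrays (adjusted p = 0.515) and -1.33 without both (adjusted p = 0.0585). At 20 h the levels were -0.97, -0.02 and 0.74 in WT and -1.57, -0.70 and -0.12 in KO, with overlap and a difference of -0.86 ± 0.37 (adjusted p = 0.552). With only the 2 groups in the fit the 6 h difference was not called (adjusted p = 0.0803).

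Ccnf was at -3.18, 0.34 and 0.48 in WT LPS 20 h and at -4.19, -3.43 and -2.64 in KO LPS 20 h. The difference was -2.81 ± 0.54, or 7.0-fold (adjusted p = 0.0123), with overlap through 1 WT array. With only these 2 groups in the fit it was not called (adjusted p = 0.157). On saline the KO levels were -3.63, -2.06 and -1.61 and 5 of the 6 WT arrays lay above all of them. On saline the count of called members was 1 without WT saline replicate 6, and also without WT LPS 20 h replicate 1, 2, 3 or 4, each left out alone. The share of all genes under these settings is not given beside it.

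**Figure D4:**
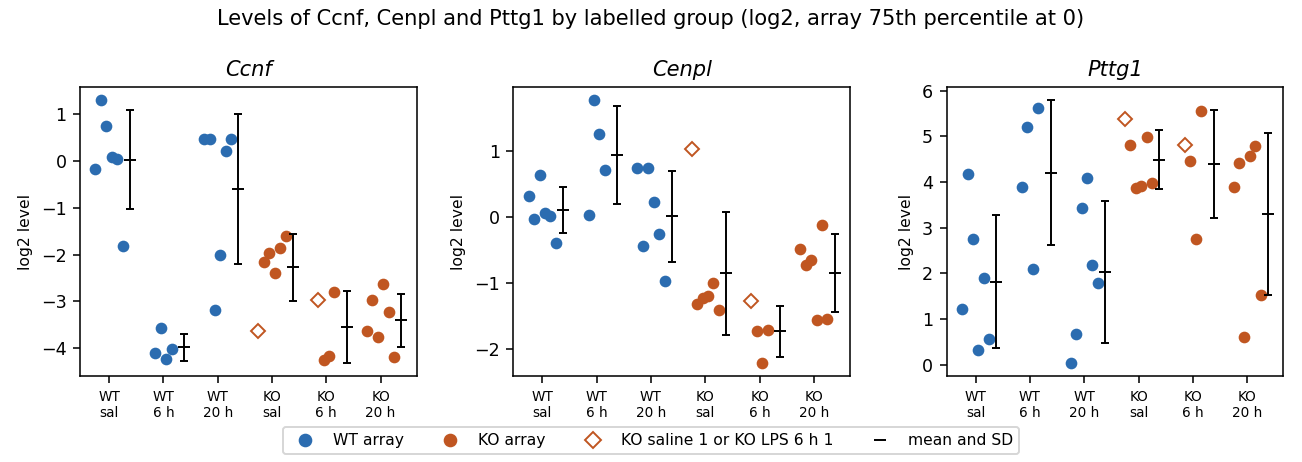
Points are log2 levels of Ccnf, Cenpl and Pttg1 on each array by labelled group, with mean and SD beside them and the 2 arrays that stand apart as open diamonds. Cenpl is lower on all 4 KO than on all 4 WT arrays at 6 h, Ccnf is low in both genotypes at 6 h, and Pttg1 spreads widely in WT.

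Whether the LPS response of a member differed between genotypes was tested by the interaction. At 6 h no member was called, against 0.125% of all genes. In limma's fit 6 members had an unadjusted p under 0.05, a looser limit for which no share of all genes is given. In limma's fit the members with the smallest p-values were Ccnf (2.74 ± 0.85, adjusted p = 0.236), Cdc25b (1.38 ± 0.45, adjusted p = 0.286) and Cenpl (-1.72 ± 0.58, adjusted p = 0.297). Without both arrays that stand apart no member was called either, against 0.151% of all genes, and these values were 2.28 ± 0.89 (adjusted p = 0.383), 1.16 ± 0.46 (adjusted p = 0.39) and -1.49 ± 0.51 (adjusted p = 0.28). The median over the 34 members was 0.23 with all arrays and -0.0033 without both. Positive values mean that the LPS difference was more positive in KO. At 20 h no member was called either, against 0.0417% of all genes. At the looser limit of an unadjusted p under 0.05 in limma's fit there was 1 member, again without a share of all genes. The 3 smallest were Nusap1 (1.11 ± 0.50, adjusted p = 0.718), Bub1b (0.72 ± 0.37, adjusted p = 0.78) and Cdc25b (0.79 ± 0.41, adjusted p = 0.791). A missed threshold does not show that the genotypes respond alike, and with array weights some members were called in the 6 h interaction (see the dependence on processing).

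How many members stood well above background also varied, from 18 to 32 of 34 per array. The lowest, median and highest counts were 22, 29.5 and 32 on WT saline, against 22, 25, 25 and 25 at 6 h in WT. At 20 h in WT they were 21, 27.5 and 31, and in KO 21, 27 and 28 on saline. The scan date moved with this count, with medians of 29 over the 12 arrays of scan 1, 22.5 over the 12 of scan 2 and 26 over the 8 of scan 3. With the scan date as a block all 34 calls of members were kept. Single scans leave some groups with 1 array. In scan 3 the only KO LPS 6 h array is replicate 1, which stands apart. Within single scans, which hold fewer arrays, 16 calls were kept and 16 lost in scan 1, 7 kept and 27 lost in scan 2, and in scan 3, where 17 could be fitted, 15 were lost and 2 turned direction.

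**Figure D5:**
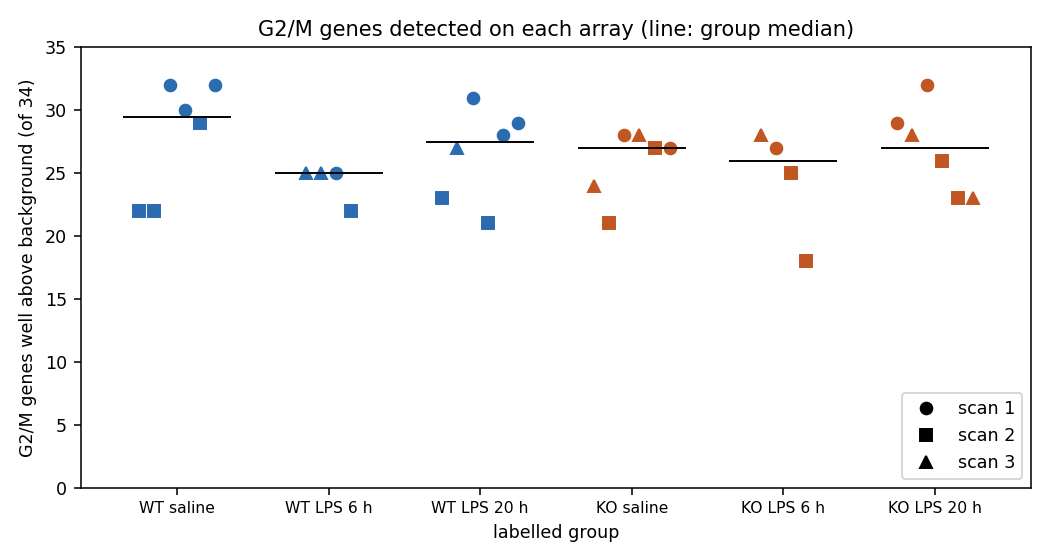
Points are the number of the 34 tested G2/M genes well above background on each array, by labelled group and scan date, with the group median as a line. Scan 1 arrays lie between 25 and 32, and the lowest count, 18, is a KO LPS 6 h array of scan 2.

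Other genes of the programme were read on a list that does not overlap the members. Of 62 tested genes for G2/M and mitosis, 19 were lower and 4 higher at 6 h in WT, against 16% and 12.5% of all genes, with a median of -0.54. The largest in each direction were Cks2 (-3.33 ± 0.65, adjusted p = 0.000309), a CDK subunit, and Melk (3.22 ± 0.82, adjusted p = 0.00354), a mitotic kinase. At 6 h only the share called lower lay above that of all genes. At 20 h 11 were lower and 5 higher, against 20.1% and 16.5% of all genes, so both shares lay below those of all genes. Among the lower were Spc24 (-4.19 ± 0.53, adjusted p = 8.86e-07) and Spc25 (-2.46 ± 0.42, adjusted p = 4.49e-05), both of the NDC80 complex at the kinetochore. Gtse1, which binds p53 and is made in G2, was higher in WT (2.14 ± 0.34, adjusted p = 1.99e-05).

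Of 53 tested genes of G1/S and DNA replication, 18 were lower and 7 higher at 6 h in WT (median -0.51), and 12 were lower and 9 higher at 20 h (median 0.03). The shares over all genes were 16% lower and 12.5% higher at 6 h, and 20.1% and 16.5% at 20 h. Cdt1, a licensing factor, was lower at 6 h (-2.64 ± 0.41, adjusted p = 3.36e-05), and Tk1 (-3.78 ± 0.51, adjusted p = 2.19e-06) and Mcm10 (-3.53 ± 0.50, adjusted p = 3.52e-06) at 20 h. In KO at 6 h without both arrays 19 were lower and 5 higher, where 16.3% and 12.9% of all genes were. With all arrays 1 was lower and 0 higher, where 1.03% and 1.58% of all genes were. Of the 12 genes of the DREAM complex and B-Myb, 2 were higher and 2 lower at 6 h in WT. Rbl1, the pocket protein p107, which stands on both lists, was higher (2.60 ± 0.54, adjusted p = 0.000594) and Lin37, a MuvB subunit, lower (-1.53 ± 0.26, adjusted p = 8.74e-05).

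Of 15 tested inhibitors of the cycle and p53 targets, 6 were higher and none lower at 6 h in WT, against 12.5% and 16% of all genes, and 5 were higher and 2 lower at 20 h, against 16.5% and 20.1%. In KO at 6 h 1 was higher with all arrays and 6 without both that stand apart, against 1.58% and 12.9% of all genes. Cdkn1a, the CDK inhibitor p21, was at -3.50, -2.39 and -0.40 on WT saline, and at 1.57, 2.05, 1.97 and 1.68 at 6 h. At 20 h it was at 2.40, 3.12 and 4.05. No LPS array of WT overlapped saline, with differences of 4.04 ± 0.86 (adjusted p = 0.000753) and 5.39 ± 0.77 (adjusted p = 4.44e-06). In KO the 20 h difference was 3.98 ± 0.77 (adjusted p = 0.000396), and 4.68 ± 0.58 without both arrays (adjusted p = 6.87e-07). Gadd45g, a stress-induced growth arrest gene, was 4.21 ± 0.72 higher at 6 h in WT (adjusted p = 7.79e-05), and the p57 gene Cdkn1c was lower at 20 h (-2.17 ± 0.34, adjusted p = 1.64e-05).

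Markers of the cell types that the tissue could hold were read in the same fits, in which 12.5% of all genes were higher and 16% lower at 6 h in WT, and 16.5% and 20.1% at 20 h. Of 14 tested neutrophil and granulocyte precursor markers, 9 were higher at 6 h and 10 at 20 h in WT and none was lower. Their summed linear level per array ran from 3.07 to 24.7 on WT saline, from 186 to 263 at 6 h and from 255 to 426 at 20 h, with Ela2 not well above background in either LPS group. Of 9 Kupffer cell markers 1 was lower and 1 higher at 6 h and 8 were lower and 1 higher at 20 h, and the sum ran from 75.1 to 98.2 on WT saline, from 32.4 to 87.3 at 6 h and from 17.5 to 65.9 at 20 h. Of 5 tested B and plasma cell markers 4 were lower at 20 h in WT, with sums from 0.672 to 1.35 on saline and from 0.247 to 0.315 at 20 h. Of 9 tested erythroid precursor markers 1 was lower at 6 h, and 3 were lower and 1 higher at 20 h, with sums from 198 to 377 on saline, from 249 to 466 at 6 h and from 109 to 357 at 20 h. The neutrophil sum spread from 2.11 to 534 over the KO saline arrays and from 30.1 to 464 over the KO LPS 6 h arrays. Of 10 hepatocyte markers none was called at 6 h, and 5 were lower and 1 higher at 20 h in WT. Of 8 stellate cell markers 1 was lower and 1 higher at 6 h, and 5 were lower and 1 higher at 20 h. Of 8 sinusoidal endothelial markers 3 were lower and 2 higher at 6 h, and 2 were lower and 2 higher at 20 h. Of 10 tested T and NK cell markers 2 were higher at each time and none lower. Of 5 cholangiocyte markers 1 was higher at 6 h, and 2 were higher and 1 lower at 20 h. Of 3 tested lung epithelial markers, 2 were higher at each time in WT. The part of these cells in the differences of the G2/M genes was not tested.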

How the data were processed

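Liver RNA of 32 mice was hybridised to 1-colour Agilent arrays, 1 array per mouse. Per the file headers, the authors' scanner software made the processed signal intensity of each spot by subtracting a spatial background, correcting a multiplicative trend and replacing low signals by a surrogate, and these intensities were deposited without scaling between arrays. The deposited table of log2 values was made by the authors in a way not given in the sources used here, and it served as an alternative. Here, outlier spots and control spots were left out, spots of a probe were averaged, and log2 intensity minus the array's 75th percentile was taken. A probe was kept where 4 or more arrays had it well above background (28337 probes, 19199 genes), with the brightest probe for each gene. One model over the 6 groups was fitted with limma 3.58.1 in R 4.3.3, with Benjamini-Hochberg adjustment in each comparison at 0.05, and was tested on simulated data. Named genes were the called members, the largest uncalled member of each comparison, and E2f1, Cdc2a, Ccna2 and Cdkn1a. The 3 members with the smallest p in each interaction were named too, and of each other list called genes from the 3 with the largest change per direction. Values of Foxm1, Plk1, Bub1, Birc5, Nusap1 and Mki67 lie outside that rule and were added after they were seen. The members and gene lists were chosen with earlier results of these data known. Groups came from the labels. Nothing says that cages or extraction days were shared or separate. Replicate numbers were not used to pair samples. Of 72 same-numbered pairs 25 correlated over 0.1, with a median of 0.012. Differently numbered pairs were not compared, so these values do not settle whether the numbers pair samples. Alternatives covered scaling, background correction, the deposited table, the filter, the probe choice, slide, scan date and replicate blocks, array weights, the samples fitted and each array left out.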

Additional observations from a re-analysis of the deposited data

Results flagged for a closer look

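Single arrays far from the rest of their group were found for 7 values, or 6.54% of the groups tested, and chance flags about 5%, so the number is close to what chance gives. Cenpe read -1.40 on WT saline replicate 5, against -3.11 to -2.55 on the others of that group, and -2.80 on KO LPS 6 h replicate 2, against -1.42 to -1.16. Cenpl read 1.02 on KO saline replicate 1, against -1.41 to -1.0. Incenp read -2.80 on WT LPS 6 h replicate 1, against -1.76 to -1.64, and 0.29 on KO LPS 6 h replicate 1, against -1.34 to -1.09. Mad2l1 read -2.52 on KO LPS 20 h replicate 4, against -1.88 to -1.52. On WT LPS 6 h replicate 4, 22 members stood well above background, against 25 on each of the others. Replicate 1 of KO saline and replicate 1 of KO LPS 6 h are the 2 arrays that stand apart over all genes. They lay on the same slide, and why they stand apart was not tested. KO LPS 20 h replicate 4 also scored far from its group, as given above.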

How the results depend on the processing

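Counts are of called G2/M genes, medians are of their log2 differences, and the cause of each move was not tested. The counts in this section stand without the share of all genes called under the same setting. They show how the members' calls moved and not whether the members differ from all genes. Without the 2 arrays that stand apart, counts were 10 (KO 6 h), 8 (WT 20 h), 4 (KO 20 h) and 7 (KO 20 h against 6 h), and medians -0.65 (KO 6 h) and 0.38 (KO 20 h against 6 h). With array weights they were 15, 13, 4 and 12 in the same order, 2 between genotypes on saline and 2 in the 6 h interaction. With only the groups compared, 11 were called in WT at 20 h, 5 in KO at 20 h, and 0 in KO 20 h against 6 h and between genotypes at 6 h and at 20 h. KO at 20 h gave 4 with median centring, and 5 with the slide or with the scan date as a block. On saline 1 was called between genotypes with median centring, normexp, the deposited table or the filter at 16 arrays. With normexp the WT 20 h median was -0.13. Within single scans fewer arrays were fitted, and some groups held 1 array. Counts in scan 1 were 2 (KO 6 h), 3 (WT 20 h against 6 h), 2 (KO 20 h against 6 h) and 0 between genotypes at 6 h and 20 h. In scan 2 they were 3 (WT 6 h), 3 (KO 6 h), 1 (WT 20 h), 0 (KO 20 h), 1 (WT 20 h against 6 h) and 0 between genotypes at both times. In scan 3, which holds no WT saline array, they were 0 for KO 20 h, both 20 h against 6 h comparisons and both genotype comparisons after LPS. Medians within scans were -0.77 (scan 2) and 0.51 (scan 3) for KO 6 h, 0.30 (scan 3) for WT 20 h against 6 h, 0.55, 0.54 and -0.64 (scans 1, 2 and 3) for KO 20 h against 6 h, -0.36 (scan 2) and 0.88 (scan 3) between genotypes at 6 h and -0.36 (scan 2) for the 6 h interaction. In scan 3 Bub1b (-0.11) and Mad2l1 (-0.049) turned direction in KO 20 h against 6 h. KO LPS 6 h is there replicate 1 alone, so each scan 3 value with that group rests on an array that stands apart.

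Leaving out 1 array at a time, counts ranged from 10 to 13 (WT 6 h), 0 to 6 (KO 6 h), 4 to 7 (WT 20 h), 1 to 6 (KO 20 h), 6 to 13 (WT 20 h against 6 h), 2 to 6 (KO 20 h against 6 h) and 0 to 1 (genotypes on saline), and stayed at 1 and 1 between genotypes at 6 h and 20 h. Medians ranged from -0.64 to -0.23, -0.58 to -0.13, -0.60 to -0.30, -0.36 to -0.01, -0.26 to 0.05, -0.23 to 0.38 and -0.23 to 0.02 in the same order, then -0.07 to 0.36 and 0.11 to 0.44 between genotypes at 6 h and 20 h, and -0.05 to 0.43 and 0.24 to 0.53 for the interactions at 6 h and 20 h. With the replicate block, 13 members were called in WT at 6 h and 11 in WT 20 h against 6 h, and 1 call was lost (Cdca8, WT 20 h against 6 h, 1.03, adjusted p = 0.061 in limma's fit). Over all alternatives other than single arrays, 466 values of called genes kept direction and call, 85 lost the call and 2 turned. Dim members such as Bub1b and Cenpf are limited by signal close to background.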
